A study of Homo sapiens with 12 samples.

Results

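The genes described here encode collagens, laminins, fibronectin and other proteins of the extracellular matrix, with the proteases that cut them, the inhibitors of those proteases and the enzymes that crosslink collagen. The set was a list of 50 genes, chosen by name and by role with earlier results of these data known. Of these, 48 had a probe set on the array, out of 11963 genes measured in all. LAMA3 and COL12A1 had none that names only that gene and were not analysed here. Each gene was read from its brightest probe set, the one with the highest mean over the 12 arrays. Values are log2 signals, on which a difference of 1 is a factor of 2, and the level of one probe set cannot be set against that of another.

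The RNA came from RCC4, an established cell line of human clear cell renal carcinoma without functional VHL, and was read on 12 Affymetrix 3′ expression arrays. Cells received an siRNA against WWTR1, which encodes the Hippo pathway coactivator TAZ (siTAZ), or a non-targeting siRNA (siNT), for 2 days. They were then kept for 7 hours with DMSO vehicle or with 1 µM erastin, an inhibitor of cystine uptake that can start ferroptosis. The groups, with 3 arrays each, were siTAZ with vehicle, siNT with vehicle, siTAZ with erastin and siNT with erastin. All groups carried an siRNA and DMSO or erastin, and cells without siRNA were not part of the design used here. The sources used here name neither the siRNA sequences nor how many siRNAs were used, so an effect of 1 siRNA sequence on other genes was not tested. The submitters describe biological triplicates, but name no separate cultures, so p-values measure the spread between these arrays. The arrays read bulk RNA, in which fewer expressing cells and less RNA per cell cannot be told apart.

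A basement membrane is a thin sheet under epithelial and endothelial cells, built from a laminin network and a type IV collagen network. Nidogens and the proteoglycan perlecan tie these networks together. The interstitial matrix outside it holds fibrillar collagens, fibronectin and fibrillin microfibrils, and matrix metalloproteinases and their tissue inhibitors set how fast both are turned over. TAZ is known as a coactivator of TEAD transcription factors, and the matrix-associated gene CCN2 is among its textbook targets. In the kidney, glomerular and tubular basement membranes differ in their laminin and type IV collagen chains.

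WWTR1 was measured first as a check of the labels. Its log2 signal was 9.25 ± 0.14 on the siTAZ arrays and 12.28 ± 0.06 on the siNT arrays (SD, n = 6 each). The siTAZ arrays lay between 9.09 and 9.46 and the siNT arrays between 12.19 and 12.35, so 12.2% of the siNT signal was left (two-sided exact permutation test, p = 0.0022). All 12 measured markers of renal carcinoma cells exceeded the near-background level in every group, with PAX8 at a mean of 10.6. That level was set at 4.73, the 75th percentile of the mean signals of 32 genes of other tissues. Control probe sets at the 3′ and 5′ ends of actin differed by 2.65 ± 0.04 on the log2 scale in siTAZ cells with vehicle and by 2.68 ± 0.28 in siNT cells with vehicle. Under erastin they differed by 3.25 ± 0.33 in siTAZ cells and by 2.26 ± 0.69 in siNT cells, so this sign of RNA quality moved with siTAZ under erastin. The same difference for GAPDH lay between 0.15 and 0.20 in the group means.

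Promoter sequences are shown for 2 pairs of collagen genes that are transcribed away from each other from neighbouring starts. They were chosen because, on the brightest probe sets, members of 1 pair were called higher with siTAZ and members of the other in opposite directions. COL4A6 was near background in every group. The dimmer probe sets of COL4A1 and COL4A2 were lower with siTAZ under erastin (-0.17 and -0.14). COL4A1 and COL4A2 start 126 bases apart on chromosome 13 and COL4A5 and COL4A6 start 379 bases apart on chromosome X. The windows run from 250 bases before a gene's start to 50 bases from it, in RefSeq on GRCh38.p14, and are printed 5′ to 3′ on the strand of the named gene. The COL4A2 window is chr13:110307034-110307333 on the plus strand, and its capitals mark the bases between both starts.
COL4A2: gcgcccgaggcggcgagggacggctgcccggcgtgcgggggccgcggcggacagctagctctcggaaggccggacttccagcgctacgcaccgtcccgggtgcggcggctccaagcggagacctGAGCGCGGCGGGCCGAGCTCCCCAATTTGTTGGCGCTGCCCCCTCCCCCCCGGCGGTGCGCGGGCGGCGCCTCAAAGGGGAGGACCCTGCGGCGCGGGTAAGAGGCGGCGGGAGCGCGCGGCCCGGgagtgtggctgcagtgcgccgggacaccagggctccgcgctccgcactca
The COL4A5 window is chrX:108439588-108439887 on the plus strand and the COL4A6 window is chrX:108439409-108439708 on the minus strand. Capitals mark the 121 bases that both windows hold, read on opposite strands.
COL4A5: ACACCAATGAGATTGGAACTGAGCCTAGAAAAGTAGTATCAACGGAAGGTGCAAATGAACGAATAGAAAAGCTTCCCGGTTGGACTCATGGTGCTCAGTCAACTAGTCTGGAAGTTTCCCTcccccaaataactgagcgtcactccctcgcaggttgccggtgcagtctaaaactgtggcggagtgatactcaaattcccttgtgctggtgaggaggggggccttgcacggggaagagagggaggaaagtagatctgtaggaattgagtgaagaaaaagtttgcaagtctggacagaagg
COL4A6: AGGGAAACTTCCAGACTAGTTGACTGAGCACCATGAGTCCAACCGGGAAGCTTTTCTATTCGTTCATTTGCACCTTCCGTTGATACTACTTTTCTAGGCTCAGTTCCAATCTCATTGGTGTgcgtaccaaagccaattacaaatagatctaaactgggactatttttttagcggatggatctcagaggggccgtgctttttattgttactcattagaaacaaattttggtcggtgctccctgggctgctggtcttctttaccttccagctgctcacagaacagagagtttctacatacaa
The FBN1 window, chr15:48644921-48645220 on the minus strand, is shown because FBN1 had the only called change of at least 2-fold among the 48 genes. Its capitals mark the letters GGAATG, the core recognised by TEAD factors, with the first base 58 bases before the start.
FBN1: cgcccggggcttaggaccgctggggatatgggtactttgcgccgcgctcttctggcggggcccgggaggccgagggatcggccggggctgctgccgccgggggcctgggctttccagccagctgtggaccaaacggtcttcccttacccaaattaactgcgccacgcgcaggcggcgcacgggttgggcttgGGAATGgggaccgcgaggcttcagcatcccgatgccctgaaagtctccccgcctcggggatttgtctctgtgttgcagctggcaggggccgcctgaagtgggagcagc
A window was given for 37 of the 48 genes. GGAATG on either strand stood in 4 of the 42 windows of these 37 genes (FBN1, SPARC, THBS1 and THBS2) and in 14% of all 35116 windows. TGANTCA, the letters recognised by AP-1, stood in 2 of the 42 windows (LAMB3 and POSTN) and in 7.71% of all windows. A match is a description of these letters and not evidence of binding.

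With siTAZ, several genes of the basement membrane, with fibronectin and fibrillin, rose in both media, while the collagenase gene MMP1 fell. In vehicle 16 of the 48 genes rose (33.3%) and 4 fell (8.33%), where 14.7% of all genes rose and 13.9% fell. Under erastin 17 rose (35.4%, SPARC near background among them) and 4 fell (8.33%), where 15.6% of all genes rose and 12.6% fell. Rises and falls are those called by the limma fit across all genes, with a Benjamini-Hochberg adjusted p under 0.05. The 15 genes that rose in both media were COL4A1, COL4A2, COL4A5, COL18A1, LAMA5, LAMB2, LAMC1, HSPG2, COL6A1, FN1, FBN1, TIMP2, LOXL1, PLOD1 and PLOD2. The 4 that fell in both were COL4A6, COL6A3, COL13A1 and MMP1. VCAN rose in vehicle alone, FBLN1 and SPARC under erastin alone, and 26 genes were called in neither medium.

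Most changes were small. The median siTAZ change over the 48 genes was 0.09 in vehicle and 0.12 under erastin, where the median over all genes was -0.01 and 0.01. In vehicle the siTAZ and siNT arrays did not overlap for 29 of the 48 genes (60.4%), against 43.8% of all genes. Under erastin they did not overlap for 27 (56.2%), against 38.8% of all genes. FBN1 in vehicle was the only called change of at least 2-fold among these genes, where 157 of all genes had one. Under erastin 0 of the 48 genes and 145 of all genes had one.

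Of the 48 genes, 8 were at or under the near-background level in all 4 groups: COL3A1, COL4A6, NID2, COL8A1, SPARC, TNC, POSTN and LUM. COL6A3 was under it in both siTAZ groups and close to it in both siNT groups. These 9 genes are given without a size of change. FBN1 was under the level in siNT cells with vehicle alone, so its change there is a lower bound.

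**Figure D1:**
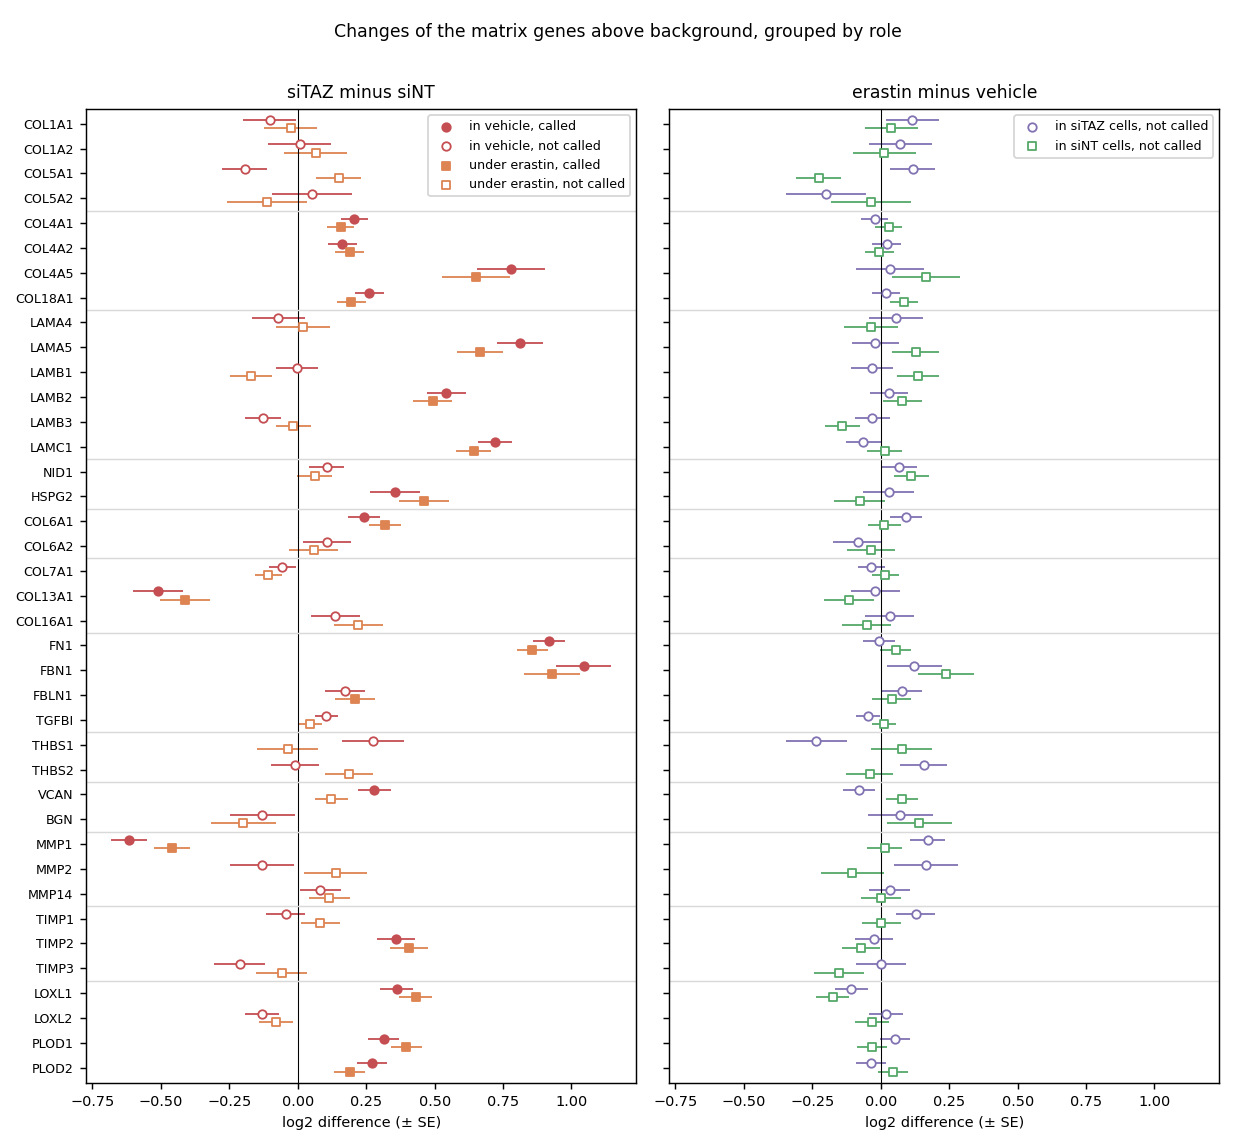
log2 change of each of the 39 matrix genes given with a size, in rows ordered by role, with bars for the standard error. One panel shows siTAZ minus siNT in each medium, with filled marks for adjusted p under 0.05, and the other shows erastin minus vehicle in each siRNA group. The siTAZ changes run from -0.62 for MMP1 to 1.04 for FBN1, while the erastin changes of the 38 genes other than FBN1, whose change in siNT cells is a lower bound, lie between -0.24 and 0.17.

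Fibronectin, the glycoprotein that cells assemble into fibrils through integrins, had one of the largest changes. FN1 read 13.35, 13.43 and 13.41 in siTAZ cells with vehicle, against 12.55, 12.48 and 12.41 in siNT cells with vehicle. With erastin it read 13.37, 13.36 and 13.44 in siTAZ cells, against 12.53, 12.61 and 12.46 in siNT cells. Every siTAZ array was above every siNT array in both media. FN1 rose by 0.92 ± 0.06 in vehicle (log2 ± SE, 1.89-fold, limma adjusted p = 3.02e-07) and by 0.86 ± 0.06 under erastin (1.81-fold, limma adjusted p = 5.7e-07). The 4 other FN1 probe sets above background gave changes of 0.64 to 1.01 in vehicle and 0.59 to 0.95 under erastin.

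FBN1 encodes fibrillin, the main protein of the microfibrils that carry elastin and bind latent TGF-beta. FBN1 read 5.51, 5.95 and 5.76 in siTAZ cells with vehicle, against 4.62, 4.65 and 4.82 in siNT cells with vehicle. With erastin its values were 5.94, 5.79 and 5.86 in siTAZ cells, against 4.81, 4.99 and 4.99 in siNT cells. The groups did not overlap in either medium, although the siNT arrays lay close to background. FBN1 rose by at least 1.04 ± 0.10 in vehicle (limma adjusted p = 9.6e-06) and by 0.93 ± 0.10 under erastin (1.90-fold, limma adjusted p = 2.6e-05). A second FBN1 probe set, near background, differed by 0.19 ± 0.11 and 0.10 ± 0.11. The mean of both probe sets rose by 0.62 in vehicle and 0.51 under erastin, so the change of at least 2-fold held for the brightest probe set only.

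FBLN1 encodes fibulin, a glycoprotein of basement membranes and elastic fibres. It read 6.66, 6.49 and 6.73 in siTAZ cells with erastin, against 6.42, 6.39 and 6.44 in siNT cells with erastin, a difference of 0.21 ± 0.07 (limma adjusted p = 0.0487). In vehicle the difference was 0.17 ± 0.07 and did not pass the test (limma adjusted p = 0.104). The change under erastin passed by little and lost its call on leaving out any of 5 of the 6 arrays compared, with adjusted p of 0.0694 to 0.177. The 4 other FBLN1 probe sets above background gave -0.09 to 0.17 under erastin, and 2 of them shared the sign of the brightest. With the mean of all FBLN1 probe sets the change under erastin was 0.076 and was not called. TGFBI, an adhesion protein induced by TGF-beta, read 14.10 to 14.17 on the siTAZ arrays and 14.03 to 14.08 on the siNT arrays. These signals stood near 14.4, the highest value on any array, and TGFBI was called in neither medium.

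**Figure D2:**
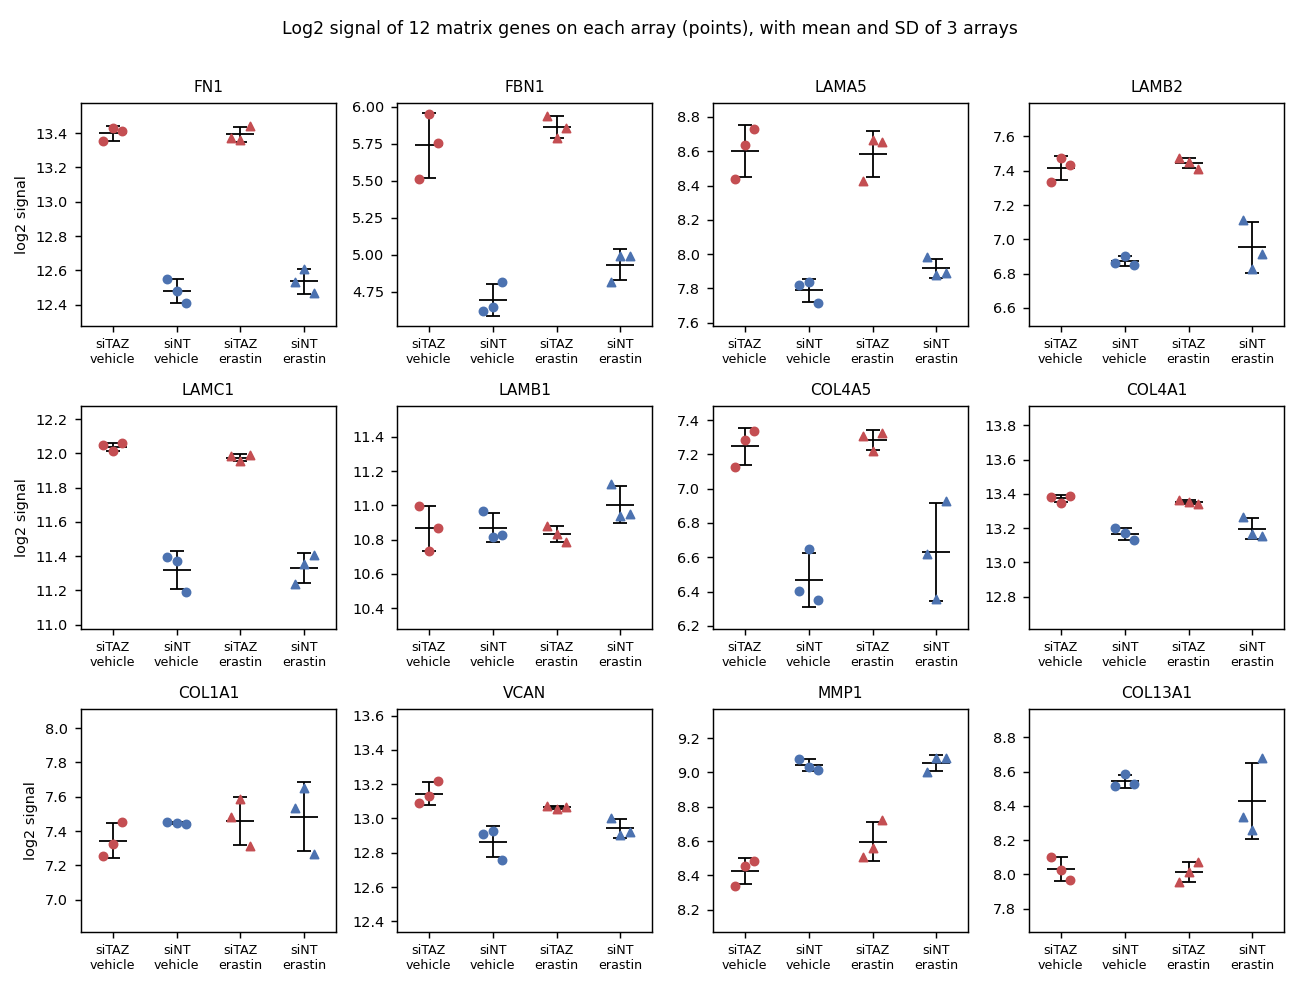
log2 signal of 12 matrix genes on each of the 12 arrays, with 1 panel per gene and groups along each horizontal axis, siTAZ left of siNT within vehicle and within erastin. Points are arrays, lines are group means with SD, and each panel has its own vertical range. FN1, LAMA5 and LAMC1 lie higher on every siTAZ array than on any siNT array of the same medium, and MMP1 lies lower.

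Laminins are trimers of an alpha, a beta and a gamma chain. Of the 6 laminin chains among the 48 genes, LAMA5, LAMB2 and LAMC1 rose in both media and LAMA4, LAMB1 and LAMB3 were called in neither. The chains that rose include one of each kind, and together they form the laminin of the mature glomerular basement membrane.

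LAMA5 read 8.44, 8.64 and 8.73 in siTAZ cells with vehicle, against 7.82, 7.83 and 7.71 in siNT cells with vehicle. Under erastin it read 8.43, 8.66 and 8.66 in siTAZ cells, against 7.98, 7.88 and 7.89 in siNT cells. The siTAZ arrays were all higher, by 0.81 ± 0.08 in vehicle (1.76-fold, limma adjusted p = 1.74e-05) and by 0.66 ± 0.08 under erastin (1.59-fold, limma adjusted p = 8.92e-05). LAMB2 read 7.34, 7.48 and 7.43 in siTAZ cells with vehicle, against 6.86, 6.90 and 6.85 in siNT cells with vehicle. It read 7.47, 7.45 and 7.41 in siTAZ cells with erastin, against 7.12, 6.83 and 6.92 in siNT cells with erastin. Again no siTAZ array fell within the range of the siNT arrays. LAMB2 rose by 0.54 ± 0.07 in vehicle (1.46-fold, limma adjusted p = 9.53e-05) and by 0.49 ± 0.07 under erastin (1.41-fold, limma adjusted p = 0.000217).

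LAMC1 encodes the gamma chain that most laminin trimers share. It read 12.05, 12.01 and 12.06 in siTAZ cells with vehicle, against 11.39, 11.37 and 11.19 in siNT cells with vehicle. With erastin it read 11.98, 11.95 and 11.99 in siTAZ cells, against 11.24, 11.35 and 11.41 in siNT cells. The siTAZ arrays of each medium lay close together and above all siNT arrays. LAMC1 rose by 0.72 ± 0.06 in vehicle (1.65-fold, limma adjusted p = 4.89e-06) and by 0.64 ± 0.06 under erastin (1.56-fold, limma adjusted p = 1.24e-05). A dimmer LAMC1 probe set gave smaller differences of 0.21 in vehicle and 0.24 under erastin.

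LAMB1, the beta chain that pairs with LAMC1 in most embryonic laminins, read 10.99, 10.73 and 10.87 in siTAZ cells with vehicle, against 10.97, 10.82 and 10.83 in siNT cells with vehicle. These arrays overlapped, with a difference of -0.00 ± 0.08 (limma adjusted p = 0.985). Under erastin the difference was -0.17 ± 0.08 (limma adjusted p = 0.131). LAMB3, a chain of the epidermal laminin that anchors hemidesmosomes, differed by -0.13 ± 0.06 in vehicle and -0.02 ± 0.06 under erastin. LAMA4, an alpha chain of vascular basement membranes, differed by -0.07 ± 0.10 and 0.02 ± 0.10.

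All 5 basement membrane collagens were called in both media, 4 as higher and COL4A6, near background, as lower with siTAZ. Of all genes, 14.7% rose and 13.9% fell in vehicle, and 15.6% rose and 12.6% fell under erastin. Under erastin COL4A5 alone of these 5 kept its call with the actin covariate described below. COL4A1 and COL4A2 encode the chains of the most widespread type IV collagen. COL4A1 read 13.38, 13.35 and 13.39 in siTAZ cells with vehicle, against 13.20, 13.17 and 13.13 in siNT cells with vehicle. It read 13.36, 13.35 and 13.34 in siTAZ cells with erastin, against 13.27, 13.17 and 13.15 in siNT cells with erastin. The arrays did not overlap, but the changes were small, at 0.21 ± 0.05 in vehicle (limma adjusted p = 0.00633) and 0.16 ± 0.05 under erastin (limma adjusted p = 0.0309). COL4A2 read 12.99, 13.02 and 13.10 in siTAZ cells with vehicle, against 12.87, 12.92 and 12.84 in siNT cells with vehicle. It read 13.06, 13.05 and 13.07 in siTAZ cells with erastin, against 12.93, 12.89 and 12.79 in siNT cells with erastin. On the brightest probe set COL4A2 thus moved with its neighbour COL4A1, by 0.16 ± 0.05 in vehicle (limma adjusted p = 0.0392) and 0.19 ± 0.05 under erastin (limma adjusted p = 0.0192).

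The calls of COL4A1 and COL4A2 rested on narrow margins. A second probe set of COL4A1 differed by 0.27 in vehicle and by -0.17 under erastin, and one of COL4A2 by 0.30 in vehicle and by -0.14 under erastin. The COL4A2 call in vehicle was lost without siTAZ replicate 2 or 3, or without any siNT replicate, with limma adjusted p of 0.0504 to 0.155. The COL4A1 call under erastin was lost without any siTAZ replicate, or without siNT replicate 2 or 3, with limma adjusted p of 0.0613 to 0.0894. The COL4A2 call under erastin was lost without siTAZ replicate 1 or 3, or without siNT replicate 3, with limma adjusted p of 0.0532 to 0.0613.

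COL4A5 encodes a type IV chain of the glomerular basement membrane that is mutated in Alport syndrome. It read 7.13, 7.28 and 7.34 in siTAZ cells with vehicle, against 6.40, 6.65 and 6.35 in siNT cells with vehicle. With erastin its values were 7.31, 7.22 and 7.32 in siTAZ cells, against 6.62, 6.35 and 6.93 in siNT cells. The siNT arrays spread more widely under erastin, but all stayed below the siTAZ arrays. COL4A5 rose by 0.78 ± 0.12 in vehicle (1.72-fold, limma adjusted p = 0.00046) and by 0.65 ± 0.12 under erastin (1.57-fold, limma adjusted p = 0.00172). COL4A6, which is transcribed away from COL4A5 from the neighbouring start, was near background in every group and fell in both media (limma adjusted p = 0.00111 in vehicle and 0.0456 under erastin). Under erastin this fall lost its call without any of the 3 siTAZ arrays or without siNT replicate 2 or 3, with limma adjusted p of 0.0629 to 0.142. COL4A6 had 3 probe sets, all near background. With their mean the calls in vehicle and under erastin were both lost, so these calls rest on the brightest probe set.

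COL18A1 encodes a basement membrane collagen whose end fragment is endostatin. It read 8.92, 8.97 and 9.07 in siTAZ cells with vehicle, against 8.73, 8.72 and 8.71 in siNT cells with vehicle. Under erastin it read 8.98, 9.0 and 9.03 in siTAZ cells, against 8.84, 8.79 and 8.78 in siNT cells. All siTAZ arrays were higher, by 0.26 ± 0.05 in vehicle (limma adjusted p = 0.00208) and 0.20 ± 0.05 under erastin (limma adjusted p = 0.0129). A dimmer COL18A1 probe set differed more, by 0.74 in vehicle and 0.76 under erastin.

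Of the 3 proteins that link the networks, HSPG2 alone was called. HSPG2 encodes perlecan, a heparan sulfate proteoglycan. It read 6.83, 6.49 and 6.76 in siTAZ cells with vehicle, against 6.33, 6.26 and 6.43 in siNT cells with vehicle. With erastin it read 6.70, 6.62 and 6.85 in siTAZ cells, against 6.28, 6.35 and 6.16 in siNT cells. HSPG2 was higher on every siTAZ array, by 0.36 ± 0.09 in vehicle (limma adjusted p = 0.0118) and 0.46 ± 0.09 under erastin (limma adjusted p = 0.0025). In vehicle its call was lost without siTAZ replicate 1 or 3, at limma adjusted p of 0.0571 and 0.0505. A dimmer HSPG2 probe set above background gave smaller differences of 0.19 ± 0.11 in vehicle and 0.16 ± 0.11 under erastin. NID1, a nidogen, differed by 0.11 ± 0.06 in vehicle and 0.06 ± 0.06 under erastin, with neither passing the test.

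**Figure D3:**
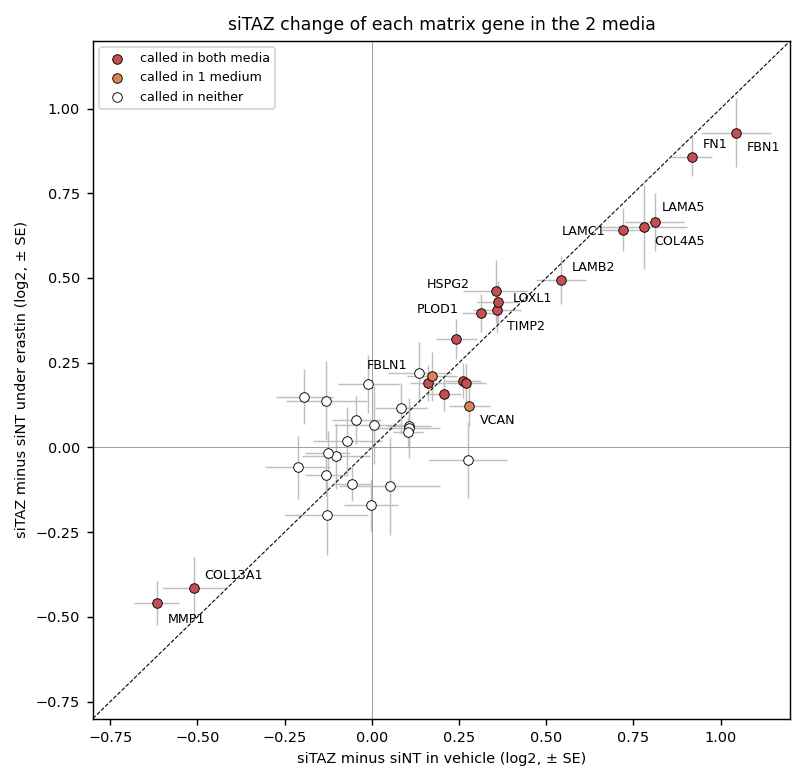
siTAZ minus siNT in vehicle (horizontal axis, log2) against siTAZ minus siNT under erastin (vertical axis, log2), with 1 point for each of 39 matrix genes, standard errors as bars and a dashed line of equality. FBN1, FN1, LAMA5, COL4A5, LAMC1 and LAMB2 lie highest on both axes, and MMP1 and COL13A1 lie lowest.

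Among the other nonfibrillar collagens COL6A1 rose in both media, and COL6A3 and COL13A1 fell. COL6A1 encodes a chain of the beaded filaments of type VI collagen. It read 9.25, 9.28 and 9.26 in siTAZ cells with vehicle, against 9.0, 9.04 and 9.02 in siNT cells with vehicle. With erastin its values were 9.32, 9.31 and 9.44 in siTAZ cells, against 9.14, 9.0 and 8.96 in siNT cells. The difference was 0.24 ± 0.06 in vehicle (limma adjusted p = 0.00737) and 0.32 ± 0.06 under erastin (limma adjusted p = 0.00127). The 3 other COL6A1 probe sets above background gave -0.18 to 0.15 in vehicle and 0.01 to 0.04 under erastin, and the mean of all its probe sets differed by -0.0093 in vehicle. COL6A2, a second chain of the same filament, differed by 0.11 ± 0.09 and 0.06 ± 0.09 and was not called. COL6A3, the third chain, fell in both media from a level near background (limma adjusted p = 6.01e-05 in vehicle and 0.000953 under erastin).

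COL13A1 encodes a transmembrane collagen of cell-matrix junctions and fell with siTAZ. It read 8.10, 8.03 and 7.96 in siTAZ cells with vehicle, against 8.52, 8.58 and 8.53 in siNT cells with vehicle. Under erastin it read 7.95, 8.01 and 8.07 in siTAZ cells, against 8.34, 8.26 and 8.68 in siNT cells. Every siTAZ array was lower, with changes of -0.51 ± 0.09 in vehicle (limma adjusted p = 0.00105) and -0.41 ± 0.09 under erastin (limma adjusted p = 0.0045). Dimmer COL13A1 probe sets moved less, by -0.29 and -0.08 in vehicle and by -0.06 and -0.03 under erastin. COL7A1, the anchoring fibril collagen of skin, and COL16A1, a collagen that associates with other fibrils, were called in neither medium.

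None of the 5 fibrillar collagens was called in either medium. COL1A1, a chain of type I collagen, read 7.25, 7.33 and 7.45 in siTAZ cells with vehicle, against 7.45, 7.45 and 7.44 in siNT cells with vehicle. With erastin it read 7.48, 7.58 and 7.31 in siTAZ cells, against 7.54, 7.65 and 7.26 in siNT cells. The groups overlapped, and the difference was -0.10 ± 0.10 in vehicle (limma adjusted p = 0.512) and -0.03 ± 0.10 under erastin (limma adjusted p = 0.895). Dimmer COL1A1 probe sets above background took different signs. One gave -0.07 ± 0.12 in vehicle and -0.20 ± 0.12 under erastin, and another 0.17 ± 0.07 and 0.18 ± 0.07. COL1A2, the partner chain, differed by 0.01 ± 0.12 in vehicle and 0.07 ± 0.12 under erastin. COL5A1, a type V chain that starts collagen fibrils, differed by -0.19 ± 0.08 in vehicle (limma adjusted p = 0.105) and by 0.15 ± 0.08 under erastin (limma adjusted p = 0.215). COL5A2, its partner, differed by 0.05 ± 0.15 in vehicle and -0.11 ± 0.15 under erastin.

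Matricellular proteins act on cells more than they build the matrix. THBS1, a thrombospondin that activates latent TGF-beta and binds CD47, read 11.45, 11.04 and 11.32 in siTAZ cells with vehicle, against 11.10, 10.97 and 10.91 in siNT cells with vehicle. These arrays overlapped, with a difference of 0.27 ± 0.11 (limma adjusted p = 0.0914). Under erastin THBS1 read 11.10, 11.18 and 10.83 in siTAZ cells, against 11.15, 10.97 and 11.09 in siNT cells, a difference of -0.04 ± 0.11 (limma adjusted p = 0.862). The 3 other THBS1 probe sets above background were all lower with siTAZ under erastin, by -0.66 ± 0.19, -0.42 ± 0.11 and -0.33 ± 0.10 (log2 ± SE). In vehicle the same 3 gave 0.28, -0.14 and -0.10, so the probe sets took different signs there. THBS2, a related thrombospondin, was called in neither medium. SPARC, a collagen-binding protein, was near background and rose under erastin (limma adjusted p = 0.013). TNC and POSTN were near background and called in neither medium.

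VCAN encodes versican, a large proteoglycan that binds hyaluronan. It read 13.09, 13.13 and 13.22 in siTAZ cells with vehicle, against 12.91, 12.93 and 12.76 in siNT cells with vehicle. With erastin its values were 13.07, 13.05 and 13.07 in siTAZ cells, against 13.00, 12.90 and 12.92 in siNT cells. On the brightest probe set the siTAZ arrays were higher in both media, and VCAN passed the test in vehicle (0.28 ± 0.06, limma adjusted p = 0.00336) but not under erastin (0.12 ± 0.06, limma adjusted p = 0.157). The test of the difference between media did not pass, at -0.16 ± 0.08 with a 95% interval of -0.34 to 0.03 (limma adjusted p = 0.776). The 4 other VCAN probe sets above background gave 0.26 to 0.51 in vehicle, but -0.31, -0.26, 0.01 and 0.12 under erastin. The differences between media of these 4 probe sets, for which no adjusted p was taken, ran from -0.76 to -0.14. BGN, the small proteoglycan biglycan, differed by -0.13 ± 0.12 and -0.20 ± 0.12.

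**Figure D4:**
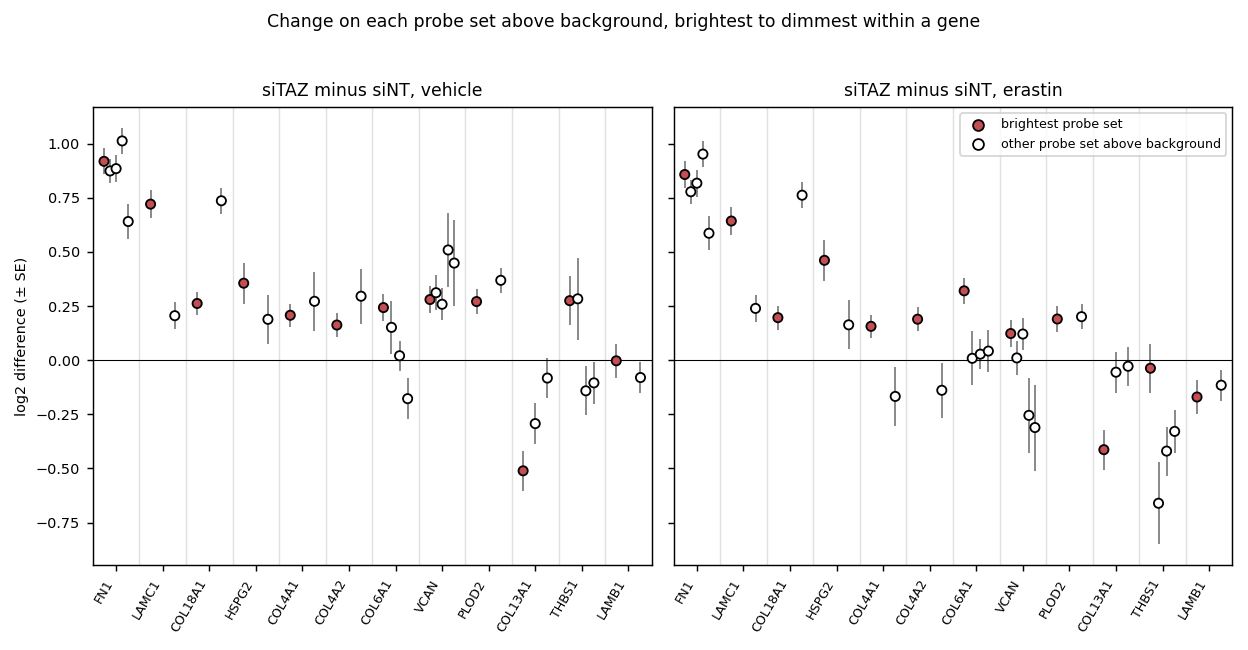
siTAZ minus siNT (log2 ± SE) on each probe set above background of 12 matrix genes, with vehicle in one panel and erastin in the other, and the brightest probe set of a gene filled. All FN1 probe sets gave differences of 0.59 or more, whereas the probe sets of COL4A1 and COL4A2 take opposite signs under erastin and those of THBS1 take opposite signs in vehicle.

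Of the 3 matrix metalloproteinases among the 48 genes, MMP1 alone was called. MMP1 encodes interstitial collagenase, which cuts fibrillar collagens. It read 8.34, 8.45 and 8.48 in siTAZ cells with vehicle, against 9.08, 9.03 and 9.01 in siNT cells with vehicle. Under erastin it read 8.51, 8.56 and 8.72 in siTAZ cells, against 9.0, 9.08 and 9.09 in siNT cells. Every siTAZ array was lower, and the change was -0.62 ± 0.06 in vehicle (limma adjusted p = 1.85e-05) and -0.46 ± 0.06 under erastin (limma adjusted p = 0.000195). MMP2, a gelatinase, differed by -0.13 ± 0.12 and 0.14 ± 0.12. MMP14, the membrane-bound activator of MMP2, differed by 0.08 ± 0.07 and 0.11 ± 0.07, and neither was called. Dimmer MMP14 probe sets above background gave -0.11 to 0.19 in vehicle and -0.03 to 0.25 under erastin.

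TIMP2 was the only one of 3 tissue inhibitors of metalloproteinases to be called. It read 6.15, 6.08 and 6.15 in siTAZ cells with vehicle, against 5.85, 5.64 and 5.81 in siNT cells with vehicle. With erastin it read 6.11, 6.11 and 6.09 in siTAZ cells, against 5.63, 5.83 and 5.63 in siNT cells. The siTAZ arrays were higher throughout, by 0.36 ± 0.07 in vehicle (limma adjusted p = 0.00181) and 0.41 ± 0.07 under erastin (limma adjusted p = 0.000794). TIMP1 differed by -0.04 ± 0.07 and 0.08 ± 0.07, and TIMP3, which is held in the matrix, by -0.21 ± 0.09 and -0.06 ± 0.09.

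Of the 4 enzymes that modify or crosslink collagen, LOXL1, PLOD1 and PLOD2 rose in both media. LOXL1, a lysyl oxidase needed for elastic fibres, read 8.03, 8.24 and 8.18 in siTAZ cells with vehicle, against 7.76, 7.80 and 7.80 in siNT cells with vehicle. It read 7.99, 8.07 and 8.07 in siTAZ cells with erastin, against 7.66, 7.59 and 7.59 in siNT cells with erastin. LOXL1 was higher on every siTAZ array, by 0.36 ± 0.06 in vehicle (limma adjusted p = 0.000596) and 0.43 ± 0.06 under erastin (limma adjusted p = 0.000171). LOXL2, a lysyl oxidase that acts on type IV collagen, differed by -0.13 ± 0.06 (limma adjusted p = 0.148) and -0.08 ± 0.06 (limma adjusted p = 0.404). A dimmer LOXL2 probe set above background, for which no adjusted p was taken, differed by -0.05 ± 0.09 in vehicle and -0.28 ± 0.09 under erastin.

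PLOD1 and PLOD2 are lysyl hydroxylases that prepare collagen for crosslinking. PLOD1 read 8.39, 8.38 and 8.42 in siTAZ cells with vehicle, against 8.18, 8.09 and 7.98 in siNT cells with vehicle. It read 8.44, 8.46 and 8.46 in siTAZ cells with erastin, against 8.03, 8.08 and 8.05 in siNT cells with erastin. The groups were apart in both media, by 0.31 ± 0.06 in vehicle (limma adjusted p = 0.001) and 0.40 ± 0.06 under erastin (limma adjusted p = 0.000187). PLOD2 read 11.74, 11.60 and 11.73 in siTAZ cells with vehicle, against 11.45, 11.45 and 11.35 in siNT cells with vehicle. It read 11.67, 11.69 and 11.60 in siTAZ cells with erastin, against 11.49, 11.47 and 11.43 in siNT cells with erastin. PLOD2 was higher on all siTAZ arrays, by 0.27 ± 0.06 in vehicle (limma adjusted p = 0.00286) and 0.19 ± 0.06 under erastin (limma adjusted p = 0.0235). The call under erastin was lost without siTAZ replicate 1 or 2 or siNT replicate 3, with limma adjusted p of 0.0595 to 0.0823.

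The siTAZ changes in vehicle and under erastin come from separate arrays. Over the 39 genes given with a size, the changes in the 2 media had a Pearson correlation of 0.933 and a Spearman correlation of 0.843. Genes are not independent replicates, and 32 of the 39 had the same sign. These values were not taken over all genes, so whether the agreement is particular to this set was not tested. The difference between media ran from -0.31 to 0.34. It was called for 0 of the 48 genes, where 0% of all genes were called higher and 0% lower. At an unadjusted p under 0.05 there were 2 of the 48 (COL5A1 and TNC), and the share of all genes at that threshold was not taken. For FN1 the difference between media was -0.06 with a 95% interval of -0.24 to 0.12. For LAMA5 it was -0.15 with an interval of -0.41 to 0.11, and for MMP1 0.16 with an interval of -0.04 to 0.36. COL5A1 had the largest difference of a brightest probe set, at 0.34 ± 0.12 (limma adjusted p = 0.77). Its 95% interval was 0.09 to 0.60. A dimmer COL5A1 probe set above background gave a difference between media of 0.01 ± 0.10.

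Because the actin 3′ to 5′ difference was higher in siTAZ cells than in siNT cells under erastin, that comparison was also fitted with it as a covariate. Then 10 of the 48 genes rose and 2 fell under erastin, and of all genes 12.6% rose and 8.72% fell. The 10 were COL4A5, LAMA5, LAMB2, LAMC1, COL6A1, FN1, FBN1, TIMP2, LOXL1 and PLOD1, while the calls of COL4A1, COL4A2, COL4A6, COL13A1, COL18A1, HSPG2, PLOD2, FBLN1 and SPARC were lost. Calls were lost with differing changes in size. With the covariate COL18A1 still differed by 0.17 ± 0.07 and PLOD2 by 0.17 ± 0.08, while COL13A1 differed by -0.21 ± 0.11, against -0.41 ± 0.09 without it. In vehicle, where actin hardly differed, the same covariate left all 20 calls in place, with 16% of all genes called higher and 15.7% lower.

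Erastin itself changed few genes at 7 hours. In siNT cells 0 of the 48 genes were called, where 0.527% of all genes rose and 0.276% fell. At an unadjusted p under 0.05 there were 4 (COL5A1, LAMB3, FBN1 and LOXL1), and the share of all genes at that threshold was not taken. In siTAZ cells 0 of the 48 rose and TNC alone fell, where 0.46% of all genes rose and 0.1% fell. TNC encodes tenascin-C, an adhesion-modulating glycoprotein, and read 3.21, 3.24 and 3.43 with erastin, against 3.57, 3.85 and 3.72 with vehicle. All these signals are near background, and the call (limma adjusted p = 0.0466) was lost without siTAZ vehicle replicate 2 or 3 or siTAZ erastin replicate 1 or 2, with limma adjusted p of 0.17 to 0.184. Among the 38 genes given with a size other than FBN1, the erastin change ran from -0.24 (THBS1) to 0.17 (MMP1) in siTAZ cells and from -0.23 (COL5A1) to 0.16 (COL4A5) in siNT cells. FBN1 differed by 0.12 ± 0.10 in siTAZ cells and by at least 0.24 ± 0.10 in siNT cells, and neither passed the test.

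Genes of neighbouring matrix functions, taken from lists written out by role, moved in both directions with siTAZ. Of 18 measured genes for making collagen, 5 rose and 2 fell in vehicle and 5 rose and 3 fell under erastin, with a median change of 0.04 in both. As given above, 14.7% of all genes rose and 13.9% fell in vehicle, and 15.6% rose and 12.6% fell under erastin. TGM2, a transglutaminase that crosslinks matrix proteins, fell, with log2 changes of -1.18 in vehicle and -1.22 under erastin. LOX, a lysyl oxidase, rose by 0.34 and 0.27, and P3H1, a prolyl hydroxylase of collagen, rose by 0.32 and 0.34. P3H2, a related prolyl hydroxylase, fell (-0.38 and -0.42). Among 19 further collagen and laminin genes, LAMA2 fell in vehicle (-0.24) and was the only call in that medium, and 0 were called under erastin. Of these 19 genes, 11 in vehicle and 12 under erastin were near background.

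Of 27 other glycoproteins and proteoglycans, 7 rose and 4 fell in vehicle and 7 rose and 2 fell under erastin. For this list and those below, 14.7% of all genes rose and 13.9% fell in vehicle. Under erastin 15.6% of all genes rose and 12.6% fell. MATN2, a filament-forming matrilin, rose by 1.29 in vehicle and 1.25 under erastin. THBS3, a thrombospondin of cartilage, rose by 0.68 and 0.46, and MFGE8, a glycoprotein that bridges dying cells to phagocytes, by 0.50 and 0.47. CCN2, a matricellular protein and a textbook TAZ target, fell (-0.63 and -0.58). Of 22 other genes of matrix proteases and their inhibitors, 5 rose and 3 fell in vehicle and 8 rose and 3 fell under erastin. ADAMTS1, which cleaves versican and aggrecan, fell (-0.55 and -0.60). In vehicle MMP15, a membrane-bound metalloproteinase, rose by 0.50 and RECK, a membrane-anchored protease inhibitor, by 0.48, while CTSK, the collagen-degrading cathepsin of osteoclasts, fell (-0.50). Under erastin ADAM19, a membrane-anchored protease, rose by 0.65 and MMP7, or matrilysin, by 0.58, while ADAM10, a sheddase, fell (-0.49). Genes of this list named for 1 medium were not among its 4 largest called changes in the other, where their change is not given. The difference between media was called for 0% of all genes. Of 13 genes of the TGF-beta arm, which drives matrix genes in many tissues, 1 rose and 3 fell in each medium. TGFBR3, the co-receptor betaglycan, rose by 1.13 in vehicle and 1.40 under erastin, while SMAD3, a signal transducer of the pathway, fell (-0.71 and -0.62). TGFBR2, the type II receptor, also fell in both media (-0.24 and -0.35), the ligand gene TGFB1 fell in vehicle (-0.32), and SMAD4, the shared partner of receptor-activated SMADs, fell under erastin (-0.72). Changes of the genes in these lists are given without the actin covariate, and their other probe sets are not described here. None of these lists had a call for erastin in either siRNA group.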

How the data were processed

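RNA of 12 arrays in 4 groups, named by the sample titles, was analysed. The log2 signals are those deposited by the authors, made with RMA in Affymetrix Expression Console per the submitters' processing notes, with versions not given in the sources used here. RMA normalises between arrays, so a shift shared by most genes cannot be seen. Array medians were 6.48 to 6.54. The array holds 22277 probe sets. Controls (62), probe sets of several genes (1043) and those with no gene named (2108) were dropped, which left 19064 for 11963 genes.

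All arrays entered 1 fit with a mean per group in limma 3.58.1 (R 4.3.3), with 8 residual and 3.90 prior degrees of freedom. Calls took Benjamini-Hochberg adjusted p-values under 0.05, adjusted over all 11963 genes, in 4 pairwise comparisons and the interaction. The script was tested on simulated data. Genes of the neighbouring lists are named by the largest called changes, up to 4 per list and comparison. The size of the COL6A3 change was left out after its values were seen. The members and lists were chosen with earlier results of these data known. Alternatives changed the normalisation, dim-gene filter, probe set rule, block, arrays fitted, variance moderation and actin covariate. With 3 arrays a group, the number of arrays limits the precision.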

Additional observations from a re-analysis of the deposited data

How the results depend on the processing

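In vehicle, 16 of the 20 siTAZ calls kept their direction and their side of the threshold in every alternative fitted, and under erastin 11 of 21 did. With genes under the 25th percentile of mean signal left out, falls numbered 2 in vehicle and 2 under erastin, because the dim fallen genes were then not fitted, and 0 for erastin in siTAZ cells. With the mean of all probe sets of a gene, COL4A1 changed by -0.0057 under erastin and COL6A1 by -0.0093 in vehicle. With the actin covariate, 10 genes rose and 2 fell with siTAZ under erastin, and the cause was not tested. The single fall with erastin in siTAZ cells (TNC) became 0 with the mean of all probe sets, the replicate block, the actin covariate or only the 2 groups in the fit, and was 0 to 1 on leaving out single arrays. Same-numbered arrays correlated at -0.42 to 0.36 in their deviations from the group means. These values were not set against those of differently numbered arrays, so whether the numbers pair arrays cannot be told. With the replicate block, 19 of 20 siTAZ calls in vehicle and 19 of 21 under erastin remained. A near-background level at the 50th or 90th percentile put 7 or 12 genes at or under it in all groups, in place of 8. Another background correction and a slide block could not be run from the deposited values.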
